A study of Mus musculus with 32 samples.

Results

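Left and right retinas of spaceflight mice were compared by RNA sequencing. The comparison held 9 of the 32 libraries of the series, chosen by condition and eye from their labels: 4 left retinas, from the mice named M21, M22, M29 and M30, and 5 right retinas, from M23, M24, M25, M26 and M27. The other libraries were 7 RNA libraries of ground control retinas and 16 DNA methylation libraries, which were not used for the comparison. The mice were female C57 BL/6J, 21 weeks old by their labels, kept for 37 days in orbit in animal enclosure modules and euthanized and frozen there, whereas ground control mice were housed and frozen on Earth. Each library came from 1 retina of 1 mouse, so no mouse gave both eyes and left and right were not paired. The right retinas came from consecutively numbered mice and the left from those numbered below and above them, so that eye and order of the mice cannot be told apart. The source name of M21 gives a flight left retina, whereas its condition label names the ground control. The source name was followed, and values without M21 are given below.

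The left and right eyes of a mouse form from the same optic field and carry the same layers of photoreceptors, interneurons, ganglion cells and Müller glia. The retina lies between tissues with very different genes. The lens is packed with crystallins, the refractive proteins. The cornea and the skin of the lids are keratin-rich epithelia, the pigment epithelium recycles vitamin A behind the photoreceptors, melanocytes of the choroid and iris make melanin, and skeletal muscle moves the eye. The retinas were dissected from frozen and thawed eyes, where the cornea, lens and sclera were cut or peeled away. RNA of those tissues can be carried along, and Cryaa (lens), Krt5 (skin and corneal epithelium) and Tyrp1 (melanin pigment) were set as its markers.

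Expression was given as FPKM, read fragments scaled by transcript length and by library size. The table holds no read counts, so no counting error was set beside an FPKM. Short structured RNAs took between 52.1 and 82.1% of the FPKM of the left libraries and between 62.4 and 75.6% of the right. M21 and M22 stood apart from the rest. Of 12814 genes, 438 in M21 and 606 in M22 lay at least 1 log2 unit from the median of the other libraries, against 79 in M29 and 31 in M30, and between 32 and 269 in the right libraries, with the highest in M23.

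No gene was called between left and right retinas. Genes with an FPKM of 1 or more in all 9 libraries were tested by limma on log2(FPKM + 0.1), left minus right, and a gene was called at a fold change of 1.2 or more, an unadjusted p of at most 0.05 and an adjusted p (Benjamini-Hochberg) of at most 0.3. Of 12814 genes tested, 0 were called (0%), and the lowest adjusted p was 0.867. At an unadjusted p of 0.05 or less, 516 genes (4.03%) passed at any fold change, and 420 (3.28%) also had the fold change, of which 249 were higher in left (1.94%) and 171 lower (1.33%). After scaling by size factors the split was 284 higher and 114 lower. By the same thresholds the limma fit with array weights called 0 genes, with 363 at the unadjusted p and fold change. The median difference over all 12814 genes was −0.02 on the log2 scale.

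M21 and M22, both left retinas, had the highest scores along the leading source of variation. Component 1 of a principal component analysis held 46.1% of the variance, with scores of 31.8, 42.5, −18.6 and −6.92 for the left libraries M21, M22, M29 and M30, against 7.91, −21.0, −15.3, −19.4 and −0.92 for the right libraries M23 to M27. M29 and M30 thus lay among the right libraries. The scores did not separate left from right (exact permutation test, two-sided, p = 0.183), nor did those of components 2 (p = 0.937) and 3 (p = 0.452). The smallest p that 4 against 5 libraries allow is 0.00794. M29 was closest to the right library M24, with r = 0.990 across genes, which are not independent replicates, whereas the r of M22 with the other libraries lay between 0.931 and 0.962.

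**Figure D1:**
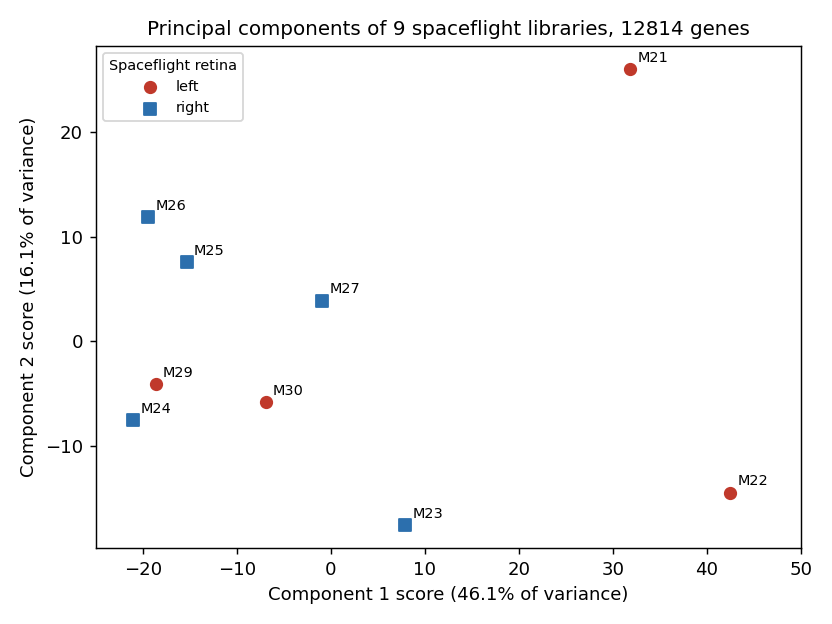
Scores of the 9 spaceflight libraries on the first and second principal components of log2(FPKM + 0.1), with the percent of variance on each axis; each point is 1 library, circles left and squares right. M21 (31.8) and M22 (42.5) lie at the high end of the first component, and M29 and M30 lie among the right libraries.

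Lens RNA was highest in the left retina M22, followed at a much lower level by the left retina M30. The 28 lens genes, mostly crystallins and lens fibre proteins, summed to 98.8, 45330, 75.0 and 1216 FPKM in the left libraries M21, M22, M29 and M30, against 311, 107, 452, 65.0 and 168 FPKM in the right libraries M23 to M27. M22 was the highest library for 28 of the 28 genes and M30 had the second highest sum, while M21 and M29 lay within the range of the right libraries. Lens genes took 10.9% of the FPKM of M22 outside the short RNAs, 0.338% in M30 and at most 0.129% in a right library. The sums of left and right libraries overlapped and did not differ by test (2.19 on the log2 scale; exact permutation test, two-sided, p = 0.333; lowest adjusted p over the 33 lists tested in this way, 0.662).

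Cryaa, the alpha A crystallin, had 6.39, 9594, 0.107 and 327 FPKM in the left libraries, against 44.8, 13.7, 105, 0.681 and 25.9 FPKM in the right. It was thus lower in M21 and M29 than in most right retinas. Its fitted difference was 1.43 ± 2.73 on the log2 scale (SE; limma, adjusted p = 0.931), an error larger than the difference. Since Cryaa and Krt5 did not reach 1 FPKM in all libraries, the fits of list genes came from the 14378 genes with a mean FPKM of 1 or more, of which 0 were called (0%), 312 were higher in left at the unadjusted p and fold change (2.17%) and 173 lower (1.2%). Mip, the water channel of lens fibres, had 0.543, 549, 0.217 and 8.64 FPKM in the left libraries, against 0.788, 0.305, 1.23, 0.232 and 0.488 FPKM in the right. Crygd, a gamma crystallin of the fibre cells, was likewise highest in M22 and next in M30, with 0, 1083, 0.116 and 14.2 FPKM in the left libraries, against 4.42, 0, 2.07, 0 and 0.695 FPKM in the right. Cryab, which retina also makes, had 60.2, 2740, 58.1 and 161 FPKM in the left libraries, against 104, 55.3, 76.9, 46.1 and 68.9 FPKM in the right, so that its contrast between libraries was smaller than that of Cryaa. Only 3 of the 28 lens genes reached 1 FPKM in all 9 libraries, so no count or median over the members tested is given.

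Skin and corneal epithelial RNA was high in 2 left retinas, M21 and M22. The 30 genes of this list, keratins and proteins of the epidermal barrier and of cell junctions, summed to 3038, 2313, 29.5 and 70.7 FPKM in the left libraries M21, M22, M29 and M30, against 98.9, 26.3, 65.6, 33.7 and 148 FPKM in the right libraries M23 to M27. M29 and M30 lay within the range of the right retinas. The sums did not differ by test (2.51 on the log2 scale; exact permutation test, two-sided, p = 0.206), and without M21 and M22, an alternative chosen after seeing the data, the difference was −0.42 (p = 0.619). M21 and M22 were the 2 highest libraries for 23 of the 30 genes. Only 5 of the 30 reached 1 FPKM in all 9 libraries.

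The epithelial genes were not the same in M21 and M22. Krt5, the keratin of basal epithelial cells, had 580, 121, 0.980 and 10.5 FPKM in the left libraries, against 11.6, 0, 4.90, 0.481 and 19.99 FPKM in the right (3.684 ± 2.001 on the log2 scale, SE; limma, adjusted p = 0.826). Krt15, another basal keratin, had 1061, 108, 0.795 and 7.97 FPKM in the left libraries, against 0.904, 0.167, 1.81, 0.553 and 28.6 FPKM in the right. Both were thus highest in M21, as were Aldh3a1, an aldehyde dehydrogenase abundant in corneal epithelium (181 FPKM in M21, 47.8 in M22 and at most 12.8 in a right library), and Calml3 (388 FPKM in M21, 63.7 in M22 and at most 14.4 in a right library). Genes of the upper, cornifying epidermis were instead high in M22. Krt1 had 1.27, 274, 1.36 and 1.29 FPKM in the left libraries, against 1.39, 1.17, 1.63, 1.63 and 1.198 FPKM in the right. Krt10, its keratin partner, had 11.1, 356, 10.5 and 7.77 FPKM in the left libraries, against 10.3, 8.03, 10.2, 11.7 and 10.2 FPKM in the right. Krtdap reached 423 FPKM, Lor (loricrin) 37.1 and Flg (filaggrin) 49.3 in M22, while M21 had 2.43, 0.899 and 0 FPKM. In all, 17 of the 30 genes were higher in M21 than in M22. Krt12, the keratin of differentiated corneal epithelium, went against the rest of the list, with 2.10, 1.75, 0.286 and 7.78 FPKM in the left libraries, against 27.6, 0.333, 13.5, 0.611 and 15.9 FPKM in the right.

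**Figure D2:**
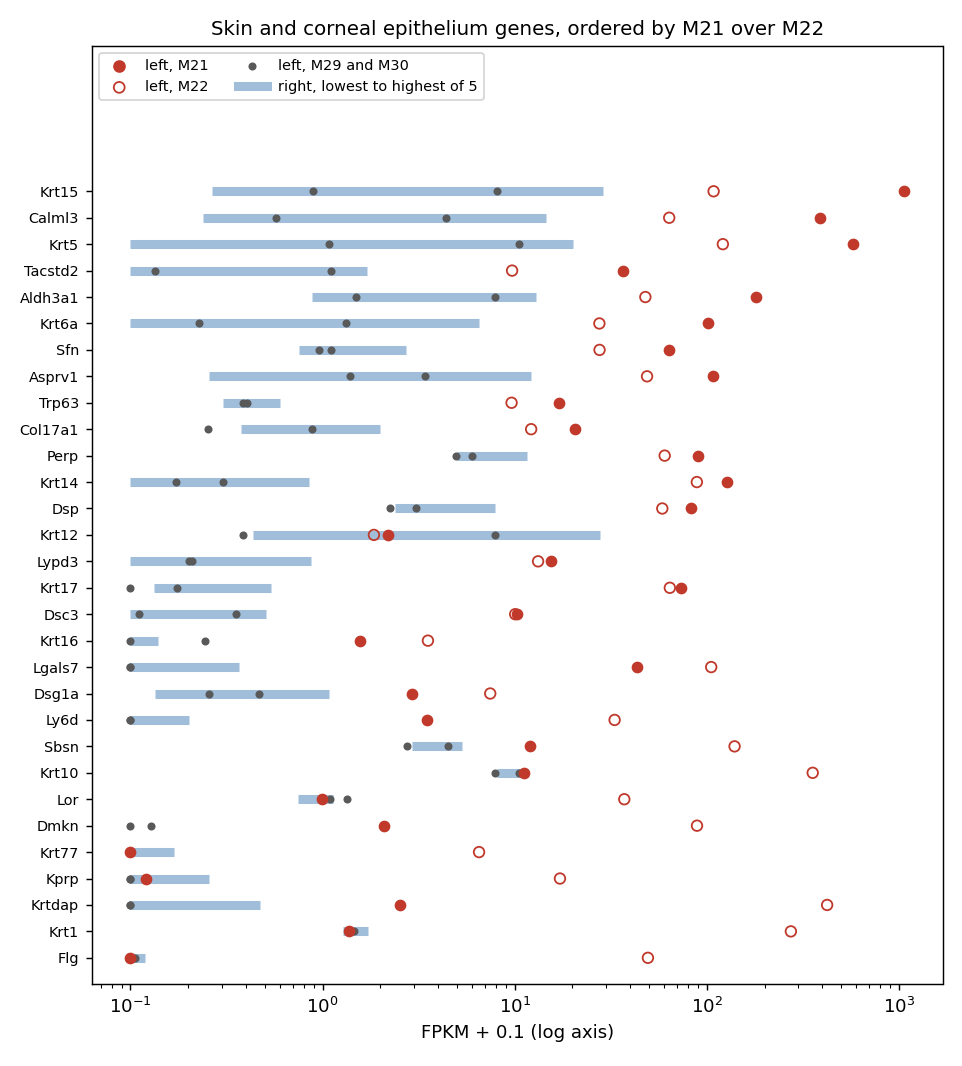
FPKM + 0.1 on a log axis for each of the 30 skin and corneal epithelium genes; filled red circles are M21, open red circles M22, grey dots M29 and M30 (all left), and blue bars run from the lowest to the highest of the 5 right libraries. Krt15 (1061) and Krt5 (580) are highest in M21, Krtdap (423), Krt10 (356) and Krt1 (274) in M22, and Krt12 lies within the right range in both.

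**Figure D3:**
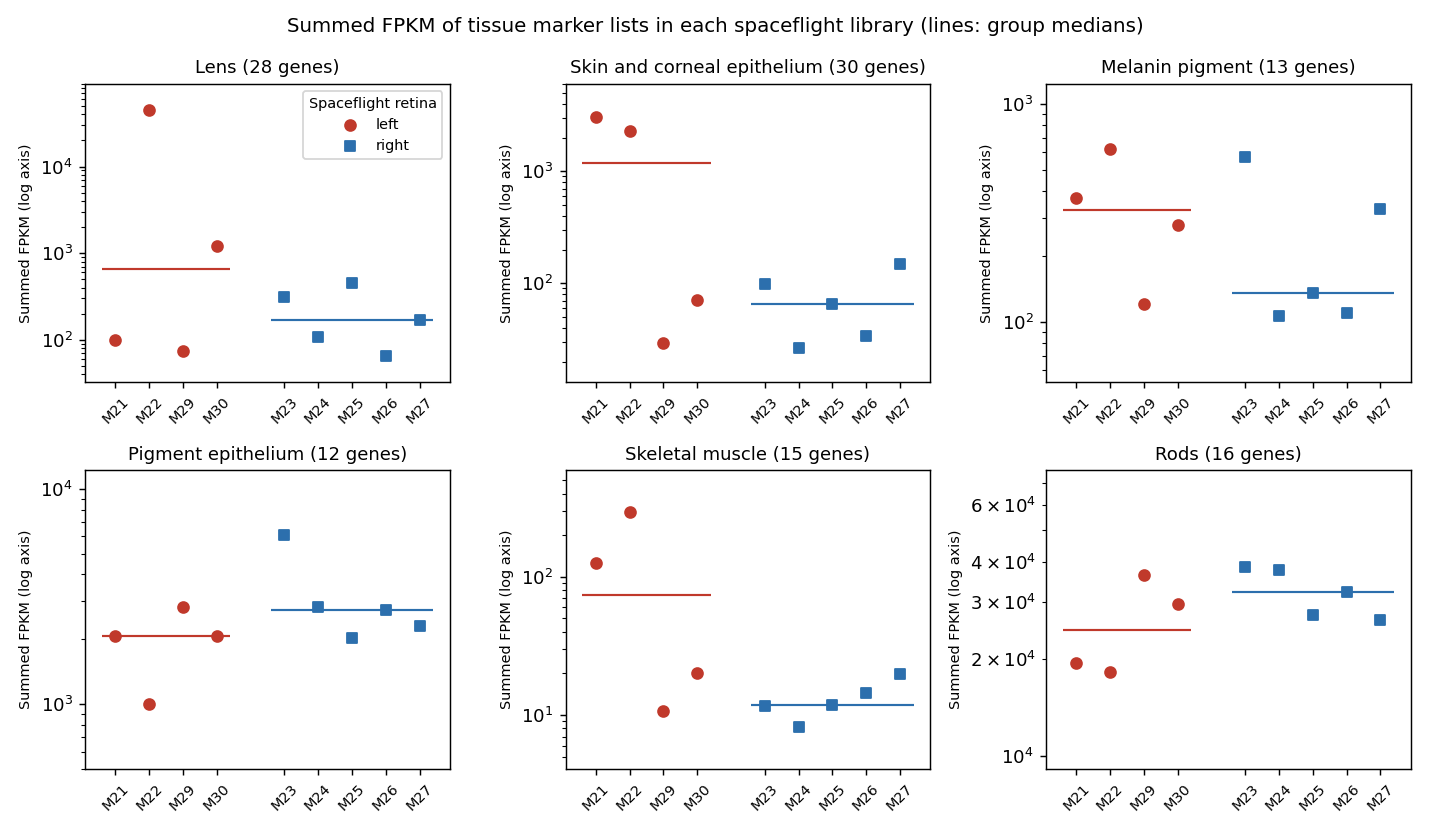
Summed FPKM on log axes for lists of lens, skin and corneal epithelium, melanin pigment, pigment epithelium, skeletal muscle and rod genes; each point is 1 library, circles left and squares right, and lines are group medians. Lens is highest in M22 (45330), skin and muscle in M21 and M22, pigment epithelium in the right library M23 (6085), and rods are lowest in M21 and M22.

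Pigment genes varied between libraries of both eyes. The 13 melanin genes summed to 371, 619, 120.5 and 279 FPKM in the left libraries M21, M22, M29 and M30, against 572, 106, 137, 110.5 and 330 FPKM in the right libraries M23 to M27 (0.58 on the log2 scale; exact permutation test, two-sided, p = 0.421). Tyrp1, an enzyme of the melanosome, had 51.4, 115, 19.97 and 51.1 FPKM in the left libraries, against 110, 11.8, 29.7, 14.5 and 54.5 FPKM in the right. M22 and the right library M23 were thus almost level, and the groups overlapped (0.66 ± 0.68 on the log2 scale, SE; limma, adjusted p = 0.863 in the wider fit). Dct, which acts beside Tyrp1 in melanin synthesis, had 186, 270, 47.6 and 125 FPKM in the left libraries, against 221, 48.4, 44.9, 49.4 and 142 FPKM in the right. Tyr, the first enzyme of the pathway, had 12.1, 17.7, 9.77 and 12.04 FPKM in the left libraries, against 26.2, 9.06, 7.72, 8.45 and 11.01 FPKM in the right. The libraries thus held a similar order for these 3 genes, with M22 and M23 at the top. Of the 13 melanin genes, 9 reached 1 FPKM in all 9 libraries and 0 were called.

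The promoters of these 3 enzymes carry the M-box, the element through which the pigment cell factor Mitf acts, and the stretches are shown as background. Any part of the M-box in the levels of these libraries was not tested. RefSeq promoter windows of GRCm38, from 250 bases before to 50 after the start of each gene, were searched on both strands for TCATGTGCT. A window was matched for 7 of the 13 melanin genes and held the letters in 3, against 134 of all 32851 windows (0.408%). The stretches of 30 bases follow on the strand of the gene, with the motif in capitals, for Tyrp1 at chr4:80834156-80834185 (+), Tyr at chr7:87493515-87493544 (−) and Dct at chr14:118052378-118052407 (−).
Tyrp1: ggggagggagTCATGTGCTgcctagtagtt
Tyr: aaaaagttagTCATGTGCTttgcagaagat
Dct: gcacttagggTCATGTGCTaacaaagagga
Mitf itself spanned a narrower range, with 5.75, 7.02, 4.34 and 5.12 FPKM in the left libraries, against 9.47, 4.63, 5.43, 4.23 and 5.10 FPKM in the right. M23 and M22 were again the highest libraries.

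Pigment epithelium genes did not follow the melanin genes in M22. The 12 genes of the list summed to 2061, 1000, 2808 and 2077 FPKM in the left libraries, against 6085, 2834, 2020, 2731 and 2311 FPKM in the right (−0.66 on the log2 scale; exact permutation test, two-sided, p = 0.198). M22 was the lowest and the right library M23 the highest. Rpe65, the isomerase of the visual cycle, had 147, 52.4, 189 and 135 FPKM in the left libraries, against 400, 196, 148, 167 and 131 FPKM in the right. The ratio of Tyrp1 to Rpe65 was 2.205 in M22 and between 0.106 and 0.379 in the other left libraries, against 0.0601 to 0.417 in the right libraries. Of the 11 genes tested, Kcnj13, a potassium channel of the pigment epithelium, passed the unadjusted p and fold change, with 59.0, 31.1, 85.8 and 70.8 FPKM in the left libraries, against 146, 98.1, 90.4, 109 and 71.3 FPKM in the right (−0.79 ± 0.29 on the log2 scale, SE; limma, adjusted p = 0.826). This was 1 of the 11 genes (9.09%), against 3.37% of all genes of the wider fit in either direction. The median difference of the 11 was −0.65 on the log2 scale, against −0.01 over all genes.

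Skeletal muscle genes were high in M21 and M22 as well. The 15 genes summed to 127, 294, 10.7 and 20.1 FPKM in the left libraries, against 11.7, 8.19, 11.9, 14.4 and 19.9 FPKM in the right (2.07 on the log2 scale; exact permutation test, two-sided, p = 0.0714). With 1 library left out the difference ran from 1.25 (without M22) to 2.84 (without M29). The exact p, unadjusted over the lists, was 0.0179 without M29 and between 0.0893 and 0.229 without any other single library. Without M21 and M22 the difference was 0.21 (exact p = 0.714). Tnnt3, the troponin T of fast muscle, had 21.9, 47.6, 0.260 and 1.46 FPKM in the left libraries, against 0.419, 0.105, 0.232, 0.327 and 0.983 FPKM in the right. M21 and M22 were the 2 highest libraries for 14 of the 15 genes, of which 1 reached 1 FPKM in all 9 libraries. M29 and M30 carried these genes at levels near those of the right libraries. Among fibroblast and scleral genes, Col1a1, a collagen chain, had 27.2, 13.6, 2.93 and 3.60 FPKM in the left libraries, against 4.28, 0.444, 4.14, 1.15 and 2.71 FPKM in the right, and M21 and M22 were the 2 highest libraries for 6 of the 15 genes. Mog, a defining myelin gene, was at most 0.105 FPKM in a left and 0.112 FPKM in a right library, and the myelin list sum of 148 FPKM in M21 was mostly Mal (126.4 FPKM in M21 and at most 13.4 in a right library), which epithelia also express.

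Photoreceptor genes were lowest in M21 and M22. Rod genes summed to 19327, 18202, 36433 and 29564 FPKM in the left libraries, against 38369, 37693, 27215, 32273 and 26338 FPKM in the right (−0.37 on the log2 scale; exact permutation test, two-sided, p = 0.198; 0.04, p = 0.857, without M21 and M22), and M21 and M22 were the 2 lowest libraries for 14 of the 16 genes. For bipolar cell genes M21 and M22 were the 2 lowest libraries in 1 of 17, and over all genes of the wider fit in 12.2%. The bipolar sums were 1451, 1491, 1900 and 1650 FPKM in the left libraries, against 1503, 1872, 1679, 1477 and 1572 FPKM in the right, with M21 the lowest (exact permutation test, two-sided, p = 1). Rod over bipolar sums gave 13.3, 12.2, 19.2 and 17.9 in the left libraries, against 25.5, 20.1, 16.2, 21.9 and 16.8 in the right. In bulk tissue, fewer rods and less RNA per rod cannot be told apart, and FPKM are shares of a library. The part of the lens, skin and muscle RNA in the rod levels was not tested. Cone genes summed to 1126, 997, 1777 and 1387 FPKM in the left libraries, against 1555, 1740, 1394, 1849 and 1515 FPKM in the right (−0.31 on the log2 scale; exact permutation test, two-sided, p = 0.127). With 1 library left out the difference ran from −0.47 (without M29) to −0.19 (without M22). The exact p, unadjusted over the lists, was 0.0179 without M29 and between 0.143 and 0.321 without any other single library. Without M21 and M22 the difference was −0.03 (exact p = 0.857).

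Nr2e3, the nuclear receptor that represses cone genes in rods, was the only rod gene whose groups did not overlap, with 212, 180, 188 and 197 FPKM in the left libraries, against 254, 282, 229, 276 and 214 FPKM in the right. Here M29 and M30 were also below every right retina (−0.36 ± 0.11 on the log2 scale, SE; limma, adjusted p = 0.826). Pax6, the eye field factor kept by amacrine cells, had 110, 129, 100.8 and 113 FPKM in the left libraries, against 93.9, 98.0, 99.7, 81.1 and 99.7 FPKM in the right. Tfap2a, an amacrine factor, had 22.8, 29.4, 25.2 and 25.4 FPKM in the left libraries, against 16.7, 21.5, 22.2, 19.2 and 21.4 FPKM in the right. Both were higher in each left retina, by small margins in M29 for Pax6 and in M21 for Tfap2a, and neither was called (limma, adjusted p = 0.826 for each). Of the 414 list genes within the main test, 4 had groups that did not overlap (0.966%), near the 108 of all 12814 genes (0.843%). Inner retinal lists had median differences on the log2 scale of 0.00 for bipolar, 0.07 for amacrine, 0.15 for horizontal, −0.21 for ganglion cell and 0.16 for Müller glia genes, against −0.01 over all genes of the wider fit. Above 0 were 8 of 17 bipolar, 11 of 16 amacrine, 7 of 8 horizontal, 1 of 16 ganglion cell and 12 of 16 Müller glia genes.

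Immediate early genes, which cells switch on within minutes of a stimulus, had their highest sums in M21 and M22. The 28 genes summed to 308, 408, 261 and 239 FPKM in the left libraries, against 243, 238, 253, 230.3 and 237 FPKM in the right (0.31 on the log2 scale; exact permutation test, two-sided, p = 0.0238, adjusted p = 0.662 over the lists). Without M21 and M22 the difference was 0.06 (exact permutation test, p = 0.286), and with any single library left out other than M30, p lay between 0.0536 and 0.0857. Dusp1, a MAP kinase phosphatase, was the fourth gene whose groups did not overlap, with 12.6, 24.9, 10.7 and 10.6 FPKM in the left libraries, against 6.82, 9.29, 9.06, 8.75 and 9.60 FPKM in the right (0.66 ± 0.24 on the log2 scale, SE; limma, adjusted p = 0.826). Junb, an AP-1 subunit, had 14.2, 18.4, 5.93 and 6.50 FPKM in the left libraries, against 3.91, 5.60, 6.02, 5.21 and 6.67 FPKM in the right. Klf4, which surface epithelia also express, had 18.1, 16.3, 2.16 and 2.19 FPKM in the left libraries, against 2.05, 1.33, 3.33, 1.27 and 3.53 FPKM in the right. For Junb and Klf4, M29 and M30 thus lay within the right range. Egr1 had 32.6, 75.1, 30.1 and 23.7 FPKM in the left libraries, against 28.6, 24.5, 21.1, 20.5 and 29.7 FPKM in the right, whereas Npas4, which follows neuronal activity, had 1.64 to 2.35 FPKM in the left and 1.93 to 2.67 FPKM in the right libraries. Of the 28 genes, 24 were tested in the wider fit, of which 5 (against 2.17% of all genes) were higher in left at the unadjusted p and fold change and 0 (against 1.2%) lower, with a median difference of 0.35 on the log2 scale, against −0.01 over all genes. The sums of these genes were highest in the same libraries as those of the skin and muscle lists, and the part of carry-over RNA in them was not tested.

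Sterol and fatty acid synthesis genes showed a like pattern. The 25 genes summed to 1330, 1204, 817 and 834 FPKM in the left libraries, against 868, 857, 768, 693 and 740 FPKM in the right (0.39 on the log2 scale; exact permutation test, two-sided, p = 0.0635; 0.08, p = 0.524, without M21 and M22). Scd1, the stearoyl-CoA desaturase abundant in sebaceous glands, had 366, 195, 6.34 and 20.4 FPKM in the left libraries, against 11.3, 6.25, 8.02, 6.20 and 10.3 FPKM in the right (2.74 ± 1.02 on the log2 scale, SE; limma, adjusted p = 0.826). It was highest in M21, followed by M22, and made up 366 of the 1330 FPKM in M21 and 195 of the 1204 FPKM in M22. M21 and M22 were the 2 highest libraries for 15 of the 25 genes (60%), against 11.6% of all genes of the wider fit. The part of carry-over RNA in these sums was not tested. Elovl4, a fatty acid elongase of photoreceptors, had 207, 178, 239 and 205 FPKM in the left libraries, against 224, 262, 197, 191 and 179 FPKM in the right. All 25 genes were tested in the wider fit, and 5 (against 2.17% of all genes) were higher in left at the unadjusted p and fold change and 0 (against 1.2%) lower, with a median difference of 0.21 on the log2 scale, against −0.01 over all genes.

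Genes of eye and body asymmetry were also examined, since the comparison is between left and right. Nodal, Lefty1, Lefty2 and Cfc1, of the Nodal pathway that sets the left side of the embryo, were each under 0.3 FPKM in every library, and Cfc1 was listed at 0 in all 9. Dand5, an antagonist of Nodal, had 20.8, 18.9, 21.9 and 17.96 FPKM in the left libraries, against 21.2, 19.8, 20.1, 20.2 and 22.1 FPKM in the right (limma, unadjusted p = 0.462). The groups overlapped. Of the 9 genes of this list tested, 0 passed the unadjusted p and fold change, with a median difference of 0.03 on the log2 scale. Among the genes that pattern the retina from dorsal to ventral and nasal to temporal, 1 of 22 tested (4.55%) passed the unadjusted p and fold change, near the 3.37% of all genes of the wider fit. It was Efnb2, a dorsal ephrin, with 14.9, 20.2, 8.58 and 9.46 FPKM in the left libraries, against 8.74, 7.95, 9.35, 6.56 and 8.49 FPKM in the right. The dorsal factor Tbx5 had 0.582, 2.97, 2.86 and 2.18 FPKM in the left libraries, against 2.40, 1.99, 2.41, 2.10 and 1.49 FPKM in the right, and the ventral factor Vax2 had 26.8, 17.0, 17.5 and 18.8 FPKM in the left libraries, against 21.9, 18.1, 16.0, 27.1 and 20.8 FPKM in the right. M21 thus had the lowest Tbx5, and the levels of Vax2 overlapped.

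None of the 20 genes with the smallest unadjusted p was called (limma, adjusted p = 0.867 for each). Higher in left were BC064078, Aif1l, Rnaset2b, Rapgefl1, Notch1, Snord13, Vgll4, Npm3, Sox4 and Paqr7, with differences between 0.48 and 1.60 on the log2 scale. Notch1, a receptor that holds progenitors undifferentiated, had 13.1, 11.8, 8.75 and 9.34 FPKM in the left libraries, against 8.70, 8.12, 7.15, 6.82 and 7.16 FPKM in the right (0.48 ± 0.13 on the log2 scale, SE). Each left retina was thus above each right retina, M29 by a margin smaller than the spread of the right libraries. Vgll4, a cofactor that competes with YAP for TEAD factors, had 5.67, 7.64, 5.16 and 5.13 FPKM in the left libraries, against 4.26, 3.47, 3.403, 3.81 and 4.91 FPKM in the right. Sox4, a factor of immature neurons, had 5.15, 5.76, 3.23 and 4.04 FPKM in the left libraries, against 2.87, 2.93, 3.30, 3.03 and 2.24 FPKM in the right. For these genes M21 and M22 were the highest libraries. Npm3, a nuclear chaperone, went another way, with 3.26, 4.95, 5.92 and 4.66 FPKM in the left libraries, against 3.26, 3.16, 3.06, 2.89 and 3.11 FPKM in the right, M29 being the highest and M21 level with the right library M23. Snord13, a small nucleolar RNA, had 329, 870, 867 and 479 FPKM in the left libraries, against 219, 183, 169, 472 and 85.7 FPKM in the right.

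Lower in left were Gm15706, 1700010K23Rik, Naa20, LOC100861840, BC096441, Gm5918, Ebpl, Nol10, Rnf121 and Arrdc2, with differences between −1.20 and −0.32 on the log2 scale. Gm15706 had the smallest p of all genes (0.00043), with 15.9, 13.4, 18.9 and 18.7 FPKM in the left libraries, against 23.9, 23.4, 24.98, 32.5 and 26.3 FPKM in the right (−0.65 ± 0.13 on the log2 scale, SE). Naa20, the catalytic subunit of an N-terminal acetyltransferase, had 15.3, 14.9, 15.8 and 16.5 FPKM in the left libraries, against 18.9, 20.07, 18.4, 20.03 and 20.03 FPKM in the right. Nol10, a nucleolar protein, had 4.85, 4.53, 4.501 and 4.88 FPKM in the left libraries, against 6.21, 6.47, 5.63, 5.96 and 5.60 FPKM in the right. In these genes all 4 left retinas lay below all 5 right retinas, M29 and M30 included. Ebpl, a relative of the sterol isomerase Ebp, had 27.2, 25.5, 39.2 and 34.3 FPKM in the left libraries, against 42.7, 45.4, 38.1, 47.1 and 44.5 FPKM in the right, so that M29 overlapped with the right. Over all genes, 40 lay higher in every left than in every right library (0.312%) and 68 lower (0.531%).

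**Figure D4:**
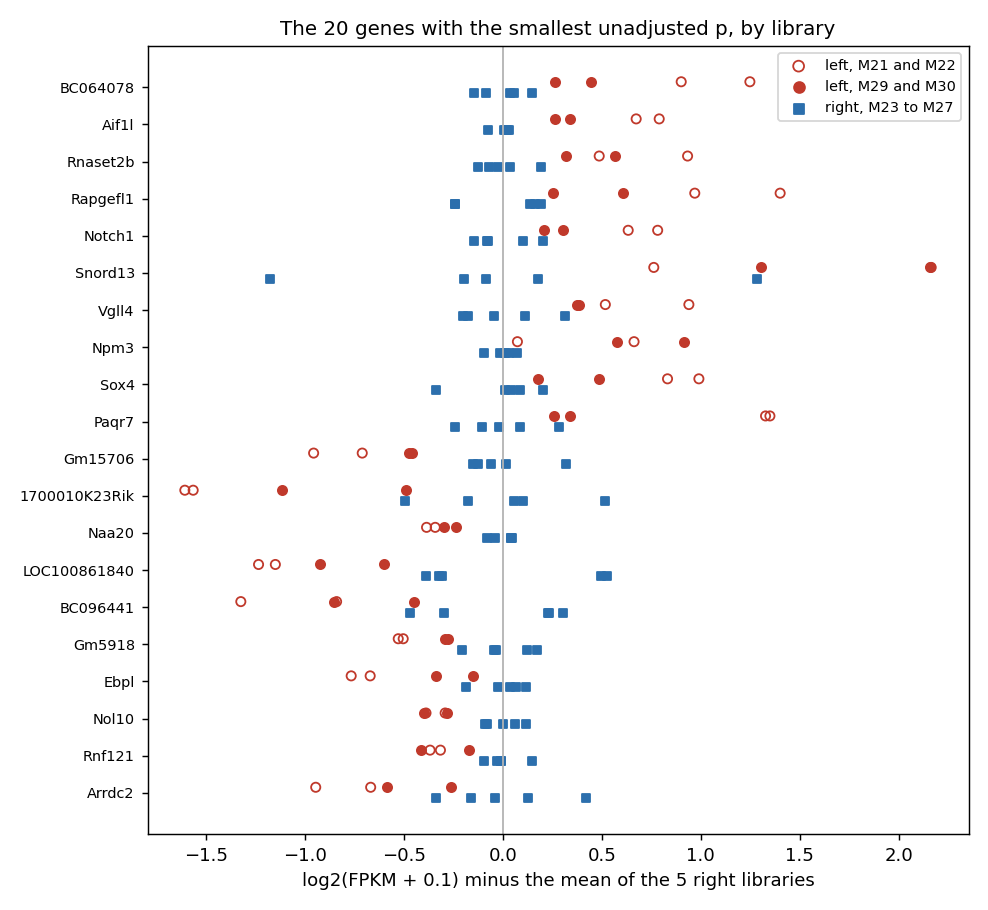
log2(FPKM + 0.1) of each library minus the mean of the 5 right libraries, for the 20 genes with the smallest unadjusted p; red circles are left (open, M21 and M22; filled, M29 and M30) and blue squares right. In genes such as BC064078 and Paqr7 the open circles lie farthest from 0, whereas in Naa20 and Nol10 all 4 left libraries lie together below the right; none passed the adjusted threshold.

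Many of the genes at the unadjusted threshold drew on M21 and M22. Of the 249 genes higher in left at the unadjusted p and fold change, M21 and M22 were the 2 highest libraries for 193 (77.5%), and both M29 and M30 lay within the right range for 99. Of the 171 lower, M21 and M22 were the 2 lowest for 98 (57.3%), and both M29 and M30 lay within the right range for 32. These counts describe genes chosen by the same comparison and carry no test. Over the 14378 genes of the wider fit, M21 and M22 were the 2 highest libraries for 11.6% and the 2 lowest for 12.2%. With M21 and M22 left out, 0 of 12908 genes were called (limma, lowest adjusted p = 0.8996, 2 left against 5 right libraries), 203 passed the unadjusted p and fold change, and 75 of them were higher in left and 128 lower. Of the 249 genes, 243 kept their sign in that fit and 16 passed, and of the 171 genes, 171 kept their sign and 31 passed. The carry-over levels were also entered as covariates. Each was the mean log2(FPKM + 0.1) of the list members with a mean FPKM of 1 or more. These were 24 of the 28 lens and 28 of the 30 skin genes, of which 3 and 5 reached 1 FPKM in all 9 libraries. With the lens score 195 genes passed the unadjusted p and fold change, with the skin score 190 and with the pigment score 417, against 420 without, and 0 genes were called with each of them. The skin score was 4.12 and 5.40 in the left libraries M21 and M22 and at most 0.66 in the others. It thus overlapped with eye, and the part of carry-over in these counts was not tested. With all 3 scores, 1 gene was called, Snora81, a small nucleolar RNA, with 153, 194, 5872 and 3067 FPKM in the left libraries, against 93.4, 560, 495, 663 and 289 FPKM in the right. M29 and M30 were its highest libraries, and M21 and M22 lay within the right range.

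In ground control retinas the same contrast was run with 2 assignments of the eyes. By the mouse numbers of the labels, with M31 and M32 left and M33 to M37 right, 2946 of 12685 genes were called (23.2%), 1471 higher in left and 1475 lower. By the library identifiers, with M31 and M33 left, M32 and M34 to M36 right and M37 left out, 0 of 12722 were called (limma; 571 at the unadjusted p and fold change). Leaving out M37 alone under the first assignment gave 3078 called genes. Carry-over was present in ground control retinas too, as lens genes took 12.2% of the FPKM outside the short RNAs in M31 and 0.146% in M32, against 10.6% in M37 and between 0.0196 and 0.578% in the other right libraries. An interaction of eye and condition was called for 11 of 12498 genes (0.088%) by the first assignment and for 0 by the second without M37 (791 at the unadjusted p and fold change), but leaving out M37 alone under the first assignment also gave 0 (1318 at the unadjusted p and fold change). Of the 20 genes above, 19 were tested in ground control retinas, and 5 were called there by the first assignment, each in the same direction as in spaceflight, beside the 23.2% of all genes called. They were Vgll4 (0.74 on the log2 scale, left minus right), Notch1 (0.42), Sox4 (0.56), 1700010K23Rik (−1.17) and Ebpl (−0.47), with limma's adjusted p between 0.0787 and 0.194.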

How the data were processed

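RNA was sequenced from 1 retina per mouse. Per the study's methods, Trimmomatic was used for trimming, TopHat2 for alignment to GRCm38 with the NCBI gene model, whose version is not given in the sources used here, and Cufflinks for quantification. The authors deposited 1 table of FPKM with 26630 entries. Libraries ran on NextSeq and HiSeq instruments, and which ran where is not stated. An entry without a gene name, up to 0.388% of FPKM in a spaceflight library, was left out, as were 2 columns of further libraries. FPKM hold no read counts, so no counting error is given; the study's read totals were not used here. Columns were matched to samples by mouse number. limma 3.58.1 (R 4.3.3) with a mean-variance trend was run on log2(FPKM + 0.1), which understates changes of low genes. The paper's thresholds for calling were used; its own test works on reads. List sums and components were compared by exact permutation. Named genes were the 10 with the smallest p in each direction, the 3 markers and, of the lists, those with the smallest p or the highest level. The members and lists were chosen with earlier results of these data known. In simulated data the fit was tested before use. The libraries are separate mice, and p-values measure the spread between them. Alternatives covered the pseudocount, the filter, scaling, the trend, weights, covariates and single libraries left out. Values of some list members are not reported here.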

Additional observations from a re-analysis of the deposited data

Results flagged for a closer look

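Within the 4 left and the 5 right libraries, 112 sets of values (list sums and named genes in each eye) were checked for a library far from its group, which chance flags in about 1 of 20 groups. Only 2 were. Müller glia genes summed to 4846 FPKM in M22, against 2677 to 2937 FPKM in the other left libraries, while the right libraries held 2343 to 4543 FPKM. Vim, an intermediate filament that lens cells also express, had 338 FPKM in M22 and at most 95.2 FPKM in a right library. The most abundant of the 16 genes was Apoe, and M22 was the highest library for 7 of them. The part of lens RNA in the sum was not tested. Aif1l had 2.26 FPKM in the right library M26, against 2.40 to 2.45 FPKM in the other right libraries. The difference between left and right was itself different in spaceflight and ground control retinas for 11 genes by limma's interaction test (adjusted p from 0.174 to 0.260), among them Tram1l1 (1.21 on the log2 scale), Bst2 (−1.76) and Lmod1 (−1.56). This count depended on single libraries, as it was 0 without any one of M29, M26, M27, M33, M34 or M37, and reached 3073 without M32 and 2368 without M31. None of the 20 genes named above for their small p in each direction was among them. The 2 ground control left libraries by the mouse numbers both carried more melanin RNA (0.240 and 0.212%) than the right ones (0.0293 to 0.0785%).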

How the results depend on the processing

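Of the 12814 genes, 0 were called under every setting except 3. With lens, skin and pigment scores together 1 was called (Snora81), with the share of short RNAs as a covariate 2 (Gm15706, lower in left, and Itga6, an epithelial integrin, higher), and without M21, M22 and M23, chosen after seeing the data, 2 (Snora81 and Rwdd2a). The 420 genes at the unadjusted p and fold change became 899 with no filter, 195 with the lens score, 190 with the skin score, 226 with all 3 scores, 664 with the share of short RNAs, 203 without M21 and M22, and 267 without M21, M22 and M23. With array weights the split was 145 higher and 218 lower. Leaving out 1 library gave 164 (without M22) to 1311 (without M29) such genes, with 274 without M21, 695 without M30, 616 without M23 and 227 without M26, and 0 called each time. The cause was not tested.

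Without M21 and M22 the skin sum became −0.42 and the melanin sum −0.11 on the log2 scale, while the first component did not separate the eyes (exact permutation test, p = 0.810). Over single libraries left out, the lens difference ran between 0.25 (without M22) and 3.33, skin between 1.47 (without M21) and 3.70, and melanin between 0.23 (without M22) and 1.02. Tyrp1 became −0.26 with the skin score. The 20 genes named for their small p in each direction kept that direction in all 500 alternative values, with the lowest adjusted p at 0.263. They were chosen by the same comparison and the settings share most libraries, so this count carries no test. With eyes by library identifier, a setting that also leaves out M37, ground control calls, 2946, became 0 (3078 without M37 alone) and interaction calls, 11, became 0 (0 without M37 alone). With 1 library left out, ground control calls ran from 2105 to 4961 and interaction calls from 0 to 3073 (without M32), with 0 without M29, M26, M27, M33, M34 or M37. Cryaa and Krt5 had no value under the filter of 1 FPKM in all libraries. No paired analysis was possible because each library came from a different mouse and the replicate numbers follow the order of the samples. FPKM hold no read counts, so the counting error of low genes is not given.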
